A study of Mus musculus with 18 samples.

Results

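The SLAM family is a set of immune cell surface receptors. The 9 members taken here are Slamf1, Slamf6, Slamf7, Slamf8, Slamf9, Cd48, Cd84, Ly9 and Cd244, which the array table lists under its present symbol Cd244a. They were found by gene symbol, 8 directly and Cd244a through its RefSeq synonym, among 19938 genes whose array probesets carry exactly 1 symbol. Each of the 9 had 1 probeset, so no choice between probesets was needed.

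Most SLAM receptors bind a further copy of themselves on a neighbouring cell. Among the exceptions are CD244, whose ligand is CD48, and CD48 itself, which is held in the membrane by a lipid anchor and has no signalling tail. In the receptors with tyrosine motifs, the tail recruits the small adaptors SAP (Sh2d1a) and EAT-2 (Sh2d1b1, with its close copy Sh2d1b2), which link them to Src family kinases, or phosphatases such as SHP-1, SHP-2 and SHIP-1 in their place. In the thymus the family is best known from thymocytes, where signals between thymocytes through SLAM receptors and SAP shape innate-like T cells, while several members are also made by dendritic cells (DCs) and macrophages.

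The study measured RNA from thymic XCR1+ DCs, the DC type specialised in presenting antigens of dying cells to CD8 T cells, on 18 Affymetrix mouse whole-transcript arrays in 6 groups of 3. All mice were of the B6 strain and untreated. Cells carried CD11c, MHC class II, XCR1 and CD8a and lacked CD11b and CD172a, and were sorted as immature cells (CD117+ CCR7-) or mature cells (CD117- CCR7+). Each stage was taken from wild-type mice in specific-pathogen-free housing (CTRL), from mice lacking Ifnar1, a chain of the type I interferon receptor, housed in the same way (Ifnar1-KO), and from germ-free wild-type mice (GF). The labels give no age. They also leave unsaid if a group's 3 arrays stand for 3 animals, 3 pools or repeats of 1 pool, and p-values here therefore describe variation among arrays, some of which may be technical. The deposited values are log2 intensities, and a level of one probeset is not compared here with that of another.

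The 2 genes whose proteins set the stages in the sort, Ccr7 and Kit (CD117), bore out the stages. Ccr7, the chemokine receptor of mature DCs, read 7.25 to 9.09 in CCR7- arrays and 11.79 to 12.09 in CCR7+ arrays. Kit read 8.54 to 9.30 in CCR7- arrays and 5.31 to 7.04 in CCR7+ arrays. Xcr1 does not mark stage, because both stages were sorted as XCR1+. Its RNA still read at least 11.28 in every CCR7- array and at most 8.36 in every CCR7+ array. The reason was not tested. Of 9 markers of XCR1+ DCs 7 fell and 1 rose with maturation in CTRL, and of 8 markers of mature DCs 7 rose and 1 fell. The Ifnar1 probeset overlapped between Ifnar1-KO and CTRL arrays of each stage (6.07 to 7.61 against 7.61 to 7.82 in CCR7+ cells). Where its probes lie relative to the deletion is not known here, so it does not check the genotype. Probesets of 1272 olfactory, vomeronasal, taste and hair keratin genes, which these cells should not make, had a median of 3.42 and a 95th percentile of 4.45. That percentile serves below as the level of an unexpressed probeset.

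Markers of other cells differed in how far they stood above that level. The mean of 16 measured thymocyte markers of 18 listed was 4.47 to 5.09 in CCR7- arrays and 5.11 to 7.54 in CCR7+ arrays, and 3 of the 16 rose with maturation in CTRL. It was highest in Ifnar1-KO CCR7+ array 2, where Cd3e read 9.90. Mean levels of B cell, macrophage, NK cell and SIRPa+ DC markers stayed between 3.40 and 4.33 in every array. Those of 5 plasmacytoid DC markers were 5.18 to 6.28 and those of 6 thymic epithelial markers, among them Epcam, which DCs also make, 4.84 to 5.33. Thymocytes also make Slamf1, Slamf6, Ly9, Cd48, Cd84 and Sh2d1a, and the part of thymocyte RNA in the values of these genes was not tested. In sorted populations measured in bulk, fewer cells making a gene and less of its RNA per cell cannot be told apart.

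The female-expressed gene Xist and the Y-linked gene Eif2s3y also went with background. Xist read 7.80 to 9.63 in CTRL, 6.14 to 8.91 in Ifnar1-KO and 3.80 to 4.37 in GF arrays, and Eif2s3y read 3.34 to 3.49, 5.22 to 7.84 and 7.71 to 8.76. Sex and background therefore cannot be told apart in the comparisons between backgrounds. Every Ifnar1-KO array stood above 4.45, the level of an unexpressed probeset, for both genes. CTRL arrays stood under it for Eif2s3y and GF arrays under it for Xist. Whether the Ifnar1-KO arrays stand for pools of both sexes was not tested. A total of 6 arrays, Ifnar1-KO number 2 and GF numbers 2 and 3 of each stage, lay apart on the second principal component (-20.91 to -6.86, against 3.57 to 10.92 for the other 12).

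With maturation the family changed in both directions. In CTRL mice Slamf1 rose, Slamf8, Cd244a, Cd84, Ly9, Slamf9 and Cd48 fell, and Slamf6 and Slamf7 did not pass the test. This is 1 member higher and 6 lower of 9, in a comparison that called 26.2% of all genes (12.6% higher and 13.6% lower). With arrays centred on their medians the split over all genes was 1669 higher and 3157 lower, in place of 2514 and 2704, while the members' calls were the same. The members' median change was -1.66 on the log2 scale, against 0.07 for all genes. In Ifnar1-KO mice 1 member rose and 5 fell, where 20.2% of genes were called, 9.42% higher and 10.8% lower. In GF mice 1 rose and 6 fell, where 21.3% were called, 9.53% higher and 11.8% lower. The median changes were -0.88 and -0.84 for the members and 0.00 and 0.03 for all genes. The 3 changes within a background use separate arrays, but their tests share a spread estimated from all 18 arrays, so the calls are not independent. The same 6 members were called in all 3 backgrounds, Cd48 in 2, and Slamf6 and Slamf7 in none. The share of all genes called in all 3 is not given here. With limma on only the groups compared, the GF calls of Slamf9 and Cd48 ended (adjusted p = 0.0790 and 0.0703).

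**Figure D1:**
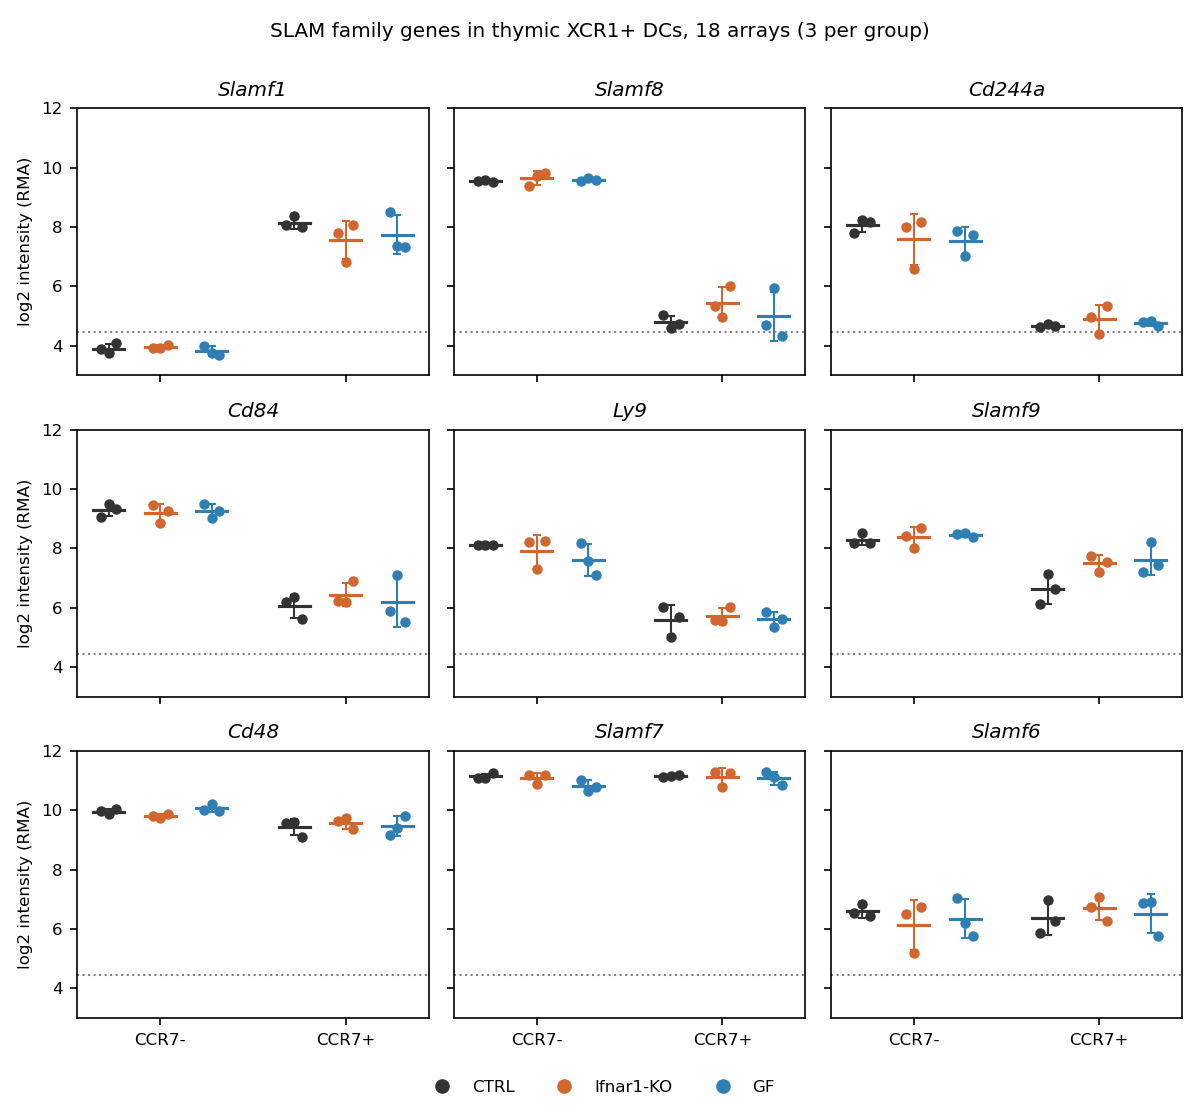
Log2 intensity of the 9 SLAM family probesets on each of the 18 arrays, by background and stage, 3 arrays a group, with each group's mean and SD; the dotted line is the 95th percentile of probesets for genes these cells should not make, 4.45. Slamf1 lies under the line in every CCR7- array and above it in every CCR7+ array, while Slamf8, Cd84, Ly9 and Cd244a are lower in every CCR7+ array than in any CCR7- array.

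Across all backgrounds, the 9 CCR7+ arrays lay above the 9 CCR7- arrays for 1 member, Slamf1, and below them for 4, Slamf8, Cd84, Ly9 and Cd244a. Of all genes 7.0% and 8.28% did so. The other 4 members overlapped between stages when backgrounds were pooled.

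The promoters of the members with the largest changes are shown because these genes lie close together on chromosome 1 and moved in opposite directions. Each is the 250 bases before a start of the gene in RefSeq's annotation of GRCm38.p6, on the gene's own strand, 5′ to 3′. For Cd244a, Cd48, Slamf7, Slamf8 and Slamf9 the window lay inside the gene's RefSeq span, so that start is not the gene's outermost one. Distances given below are to the start used. RefSeq windows were matched for 8 of the 9 members (Ly9 was not used here). Capitals mark matches to any of 5 motifs searched on both strands: AP-1 (TGANTCA), the PU.1 core (GAGGAA), the ETS-IRF composite (GGAA, any 2 bases, GAAA), the IRF pair (GAAA, any 2 bases, GAAA) and NF-kB (GGGA, any 2 bases, TTCC). The composite and the PU.1 core share the letters GGAA and can overlap.
Slamf1, chr1:171766882-171767131, + strand: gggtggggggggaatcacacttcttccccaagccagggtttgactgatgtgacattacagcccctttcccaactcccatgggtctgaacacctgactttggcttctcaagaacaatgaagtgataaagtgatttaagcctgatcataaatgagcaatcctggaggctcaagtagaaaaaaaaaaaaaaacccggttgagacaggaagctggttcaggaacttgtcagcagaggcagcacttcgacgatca
Slamf8, chr1:172590569-172590818, - strand: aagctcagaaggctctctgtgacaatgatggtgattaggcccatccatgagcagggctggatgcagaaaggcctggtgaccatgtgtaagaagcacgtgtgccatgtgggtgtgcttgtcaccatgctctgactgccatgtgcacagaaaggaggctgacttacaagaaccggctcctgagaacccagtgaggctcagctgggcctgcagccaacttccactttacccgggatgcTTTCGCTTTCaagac
Cd84, chr1:171839447-171839696, + strand: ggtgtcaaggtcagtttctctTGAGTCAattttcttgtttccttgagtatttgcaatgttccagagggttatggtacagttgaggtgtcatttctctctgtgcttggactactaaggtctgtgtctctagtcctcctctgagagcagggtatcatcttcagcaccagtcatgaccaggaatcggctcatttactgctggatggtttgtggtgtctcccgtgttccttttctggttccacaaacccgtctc
Cd244a, chr1:171558943-171559192, + strand: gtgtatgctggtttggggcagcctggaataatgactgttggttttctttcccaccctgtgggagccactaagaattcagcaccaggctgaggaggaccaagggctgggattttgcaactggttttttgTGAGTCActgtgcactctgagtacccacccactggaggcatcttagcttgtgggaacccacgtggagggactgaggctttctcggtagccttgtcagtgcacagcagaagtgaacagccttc

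The Slamf1 window, of the member that rose, held none of the 5 motifs, nor did those of Cd48 and Slamf6. An AP-1 match stood in the windows of Cd244a, where it began 122 bases before the start, of Cd84, at 229 bases, and of Slamf7, at 42 bases. Of 32841 windows of the same length 6.75% held one. The Slamf8 window held an IRF pair, read on the opposite strand and beginning 15 bases before the start, as did 2.98% of windows. A PU.1 core stood in the Slamf9 window alone among the 8, 8 bases before the start, and in 23.3% of all windows. The composite and NF-kB motifs, found in 2.30% and 1.21% of windows, matched in none of the 8. These are matches of letters only. AP-1 matches stood in 2 members that fell and in Slamf7, which did not pass the test.

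Slamf1 encodes SLAM (CD150), a self-binding receptor that costimulates T cells and in macrophages takes part in uptake of some bacteria. In CTRL mice its probeset read 3.88, 3.75 and 4.07 in CCR7- arrays 1, 2 and 3, and 8.07, 8.38 and 7.99 in CCR7+ arrays. In Ifnar1-KO mice it read 3.92, 3.93 and 4.03, then 7.80, 6.82 and 8.06, and in GF mice 4.0, 3.74 and 3.69, then 8.49, 7.36 and 7.34. Every CCR7- array lay under the level of unexpressed probesets and every CCR7+ array at least 2 log2 units above it, with no overlap. The rise was 4.25 ± 0.30 (SE) in CTRL, a 19.0-fold difference (limma, adjusted p = 9.39e-08). It was 3.60 ± 0.30 in Ifnar1-KO (12.1-fold, adjusted p = 5.76e-07) and 3.92 ± 0.30 in GF (15.2-fold, adjusted p = 2.28e-07). Because the CCR7- readings lay within the background of the array, these folds may understate the change. Among all genes the size of the CTRL change ranked 54 of 19938.

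Ifnar1-KO CCR7+ array 2, with the highest thymocyte marker mean of all arrays, had the lowest Slamf1 reading of the CCR7+ arrays. It was also among the arrays apart on the second component, as were GF CCR7+ arrays 2 and 3. Slamf1 read 7.36 and 7.34 in those GF arrays, where the thymocyte marker means were 6.11 and 5.63. The part of thymocyte RNA in these readings was not tested. Without both Ifnar1-KO number 2 arrays the Slamf1 rise in that background was 3.95 ± 0.30 (adjusted p = 1.27e-06).

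Slamf8 had the largest fall. It encodes BLAME, a receptor with a short tail that in macrophages holds down production of reactive oxygen. Its CCR7- readings were 9.55, 9.57 and 9.51 in CTRL, 9.39, 9.72 and 9.83 in Ifnar1-KO, and 9.54, 9.65 and 9.59 in GF. In CCR7+ cells they were 5.03, 4.60 and 4.74 in CTRL, 5.32, 4.96 and 6.01 in Ifnar1-KO, and 4.71, 5.92 and 4.32 in GF. All CCR7- arrays stood close together and far above all CCR7+ arrays, which were more scattered and in one GF array fell under 4.45. The change was -4.75 ± 0.32 in CTRL (27.0-fold lower, adjusted p = 5.86e-08), rank 24 by size among all genes. It was -4.22 ± 0.32 in Ifnar1-KO (adjusted p = 2.21e-07) and -4.61 ± 0.32 in GF (adjusted p = 8.41e-08).

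Slamf9, the other member with a short tail and no tyrosine motif, lies near Slamf8 on the chromosome and fell by less. In CTRL mice it read 8.17, 8.50 and 8.18 in CCR7- and 6.12, 7.14 and 6.62 in CCR7+ cells. In Ifnar1-KO mice it read 8.41, 8.0 and 8.69, then 7.75, 7.19 and 7.53, and in GF mice 8.47, 8.52 and 8.38, then 7.21, 8.20 and 7.44. The stages did not overlap within any background, although the lowest CCR7- array of Ifnar1-KO lay under the highest CCR7+ array of GF. The change was -1.66 ± 0.27 in CTRL (3.15-fold lower, adjusted p = 0.000286), -0.88 ± 0.27 in Ifnar1-KO (adjusted p = 0.0317) and -0.84 ± 0.27 in GF (adjusted p = 0.0386).

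The Slamf9 calls outside CTRL were close to the threshold and ended in most fits that left out a single array. In Ifnar1-KO the change was -0.85 or -0.72 without CCR7- array 1 or 3 (adjusted p = 0.0825 and 0.134), -0.73 or -0.90 without CCR7+ array 2 or 3 (0.123 and 0.0671), and -0.91 ± 0.32 without both number 2 arrays (0.0645). In GF it was -0.83, -0.81 and -0.88 without each CCR7- array in turn (adjusted p = 0.0914, 0.0978 and 0.0707). It was -0.63 or -0.75 without CCR7+ array 1 or 3 (adjusted p = 0.165 and 0.117). Without the 6 arrays apart, which left 1 GF array a stage, the GF change was -1.26. The size of the change moved little in most of these fits, while its SE, 0.27 with all arrays, was 0.29 or more. The Ifnar1-KO call held without CCR7- array 2 or CCR7+ array 1, and the GF call held without CCR7+ array 2. Without the 6 arrays apart the Ifnar1-KO change was -0.91.

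Cd244a encodes 2B4, the receptor for CD48, known from NK cells and CD8 T cells. Its CCR7- readings were 7.78, 8.22 and 8.16 in CTRL, 8.01, 6.59 and 8.15 in Ifnar1-KO, and 7.86, 7.01 and 7.74 in GF. In CCR7+ cells they were 4.61, 4.73 and 4.66 in CTRL, 4.97, 4.41 and 5.33 in Ifnar1-KO, and 4.79, 4.83 and 4.65 in GF. The stages did not overlap, and the CCR7+ arrays lay near the level of unexpressed probesets, 1 of them under it. The fall was -3.39 ± 0.34 in CTRL (10.5-fold lower, adjusted p = 3.03e-06), -2.68 ± 0.34 in Ifnar1-KO (adjusted p = 3.48e-05) and -2.78 ± 0.34 in GF (adjusted p = 2.33e-05).

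Cd48, which encodes its ligand, changed far less. CTRL arrays read 9.97, 9.86 and 10.04 in CCR7- and 9.58, 9.59 and 9.11 in CCR7+ cells. Ifnar1-KO arrays read 9.81, 9.75 and 9.87, then 9.65, 9.75 and 9.36, and GF arrays 10.02, 10.20 and 9.99, then 9.18, 9.41 and 9.82. The stages stood apart in CTRL and GF and touched in Ifnar1-KO. The change was -0.53 ± 0.16 in CTRL (1.45-fold lower, adjusted p = 0.0211) and -0.59 ± 0.16 in GF (1.51-fold lower, adjusted p = 0.0127). In Ifnar1-KO it was -0.22 ± 0.16 and was not called (adjusted p = 0.425). The CTRL call ended without CCR7- array 1 or 3 or CCR7+ array 3 (adjusted p = 0.0585, 0.0711 and 0.115), and the GF call without CCR7- array 2 or CCR7+ array 1 (0.0544 and 0.0695).

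Cd84, a self-binding receptor of B cells, T cells and myeloid cells, also fell in all 3 backgrounds. It read 9.06, 9.48 and 9.33 in CTRL CCR7- cells, 9.45, 8.86 and 9.27 in Ifnar1-KO and 9.48, 9.01 and 9.24 in GF. CCR7+ cells read 6.18, 6.35 and 5.61 in CTRL, 6.21, 6.20 and 6.89 in Ifnar1-KO, and 5.89, 7.12 and 5.52 in GF. No CCR7+ array reached any CCR7- array, and every CCR7+ array stayed above 4.45. The change was -3.24 ± 0.34 in CTRL (9.46-fold lower, adjusted p = 3.79e-06), -2.76 ± 0.34 in Ifnar1-KO (adjusted p = 2.17e-05) and -3.07 ± 0.34 in GF (adjusted p = 7.31e-06).

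Ly9 (CD229), a self-binding receptor of lymphocytes with the longest extracellular part of the family, also fell in every background. CTRL arrays read 8.11, 8.10 and 8.12, then 6.01, 5.02 and 5.69. Ifnar1-KO arrays read 8.21, 7.29 and 8.25, then 5.58, 5.56 and 6.02, and GF arrays 8.17, 7.57 and 7.11, then 5.87, 5.34 and 5.61. The stages did not overlap, and in CCR7- cells Ifnar1-KO array 2 and GF arrays 2 and 3 stood below the rest. The change was -2.54 ± 0.30 in CTRL (5.82-fold lower, adjusted p = 1.49e-05), -2.20 ± 0.30 in Ifnar1-KO (adjusted p = 7.1e-05) and -2.01 ± 0.30 in GF (adjusted p = 0.000156).

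Slamf7 and Slamf6 did not pass the test in any background, with very different spreads. Slamf7 (CRACC), a self-binding receptor that signals through EAT-2 in NK cells, read 11.09, 11.10 and 11.25 in CTRL CCR7- cells and 11.13, 11.17 and 11.18 in CCR7+ cells. Its readings were 11.20, 10.89 and 11.19, then 11.30, 10.77 and 11.27, in Ifnar1-KO, and 11.03, 10.64 and 10.78, then 11.28, 11.13 and 10.84, in GF. The stages overlapped in each background. Its change was 0.01 in CTRL (95% interval -0.30 to 0.33, adjusted p = 0.955), 0.02 in Ifnar1-KO (-0.30 to 0.34) and 0.27 in GF (-0.05 to 0.58, adjusted p = 0.255).

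Slamf6 (Ly108), a self-binding receptor of T, B and NK cells that signals through SAP, was the most scattered member within groups. It read 6.53, 6.85 and 6.43 in CTRL CCR7- cells, 6.49, 5.18 and 6.73 in Ifnar1-KO, and 7.06, 6.21 and 5.76 in GF. In CCR7+ cells it read 5.85, 6.97 and 6.28 in CTRL, 6.74, 7.08 and 6.28 in Ifnar1-KO, and 6.87, 6.92 and 5.75 in GF. All 6 groups overlapped. The change was -0.24 in CTRL (95% interval -1.18 to 0.71), 0.57 in Ifnar1-KO (-0.38 to 1.51) and 0.17 in GF (-0.78 to 1.12). With 3 arrays a group, the intervals left room for a change as low as -1.18 in CTRL or as high as 1.51 in Ifnar1-KO. The highest reading, 7.08, was that of Ifnar1-KO CCR7+ array 2. Without both Ifnar1-KO number 2 arrays the change in that background was -0.10 ± 0.46.

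**Figure D2:**
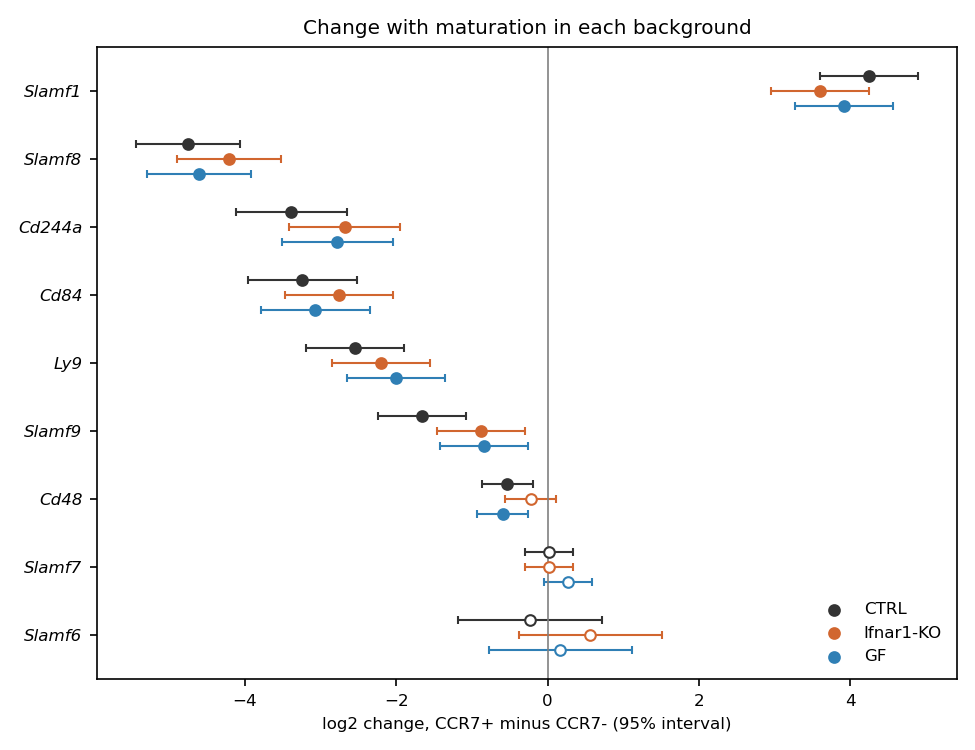
Maturation change (CCR7+ minus CCR7-, log2) of each SLAM family member in CTRL, Ifnar1-KO and GF mice, with 95% intervals from limma on 3 arrays a group; filled points were called at an adjusted p under 0.05 and open points were not. In CTRL, Slamf1 stands at 4.25 and Slamf8 at -4.75, and Slamf6 and Slamf7 are open in all 3 backgrounds.

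The order of the 6 groups followed stage for most members. For Slamf1, Slamf8, Cd84, Ly9 and Cd244a the 3 groups of one stage all stood above the 3 of the other, and neighbours in the order within a stage overlapped in their arrays. For Slamf9 the order from the top was GF, Ifnar1-KO and CTRL CCR7- cells at means of 8.46 ± 0.07, 8.37 ± 0.34 and 8.28 ± 0.19 (SD, n = 3), then GF, Ifnar1-KO and CTRL CCR7+ cells at 7.62 ± 0.52, 7.49 ± 0.28 and 6.63 ± 0.51. Of these neighbours, only Ifnar1-KO and CTRL CCR7+ cells did not overlap. For Slamf6, Slamf7 and Cd48 all neighbouring groups overlapped.

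The comparisons between backgrounds ask whether type I interferon signalling or microbes set the level of these receptors. No member was called in any of them by limma. In CCR7- cells members differed by -0.47 to 0.10 between Ifnar1-KO and CTRL and by -0.52 to 0.17 between GF and CTRL. In CCR7+ cells the differences were -0.59 to 0.86 and -0.42 to 0.99. Few genes of any kind were called: 0.0% for Ifnar1-KO and 0.015% for GF in CCR7- cells, and 0.015% and 0.0301% in CCR7+ cells. At an unadjusted p under 0.05 there were 1401 and 1260 genes in CCR7- cells, with 0 and 1 members, and 582 and 1168 in CCR7+ cells, with 1 member each. The member in CCR7- cells was Slamf7, lower in GF by -0.33 ± 0.15 (adjusted p = 0.766).

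The member in CCR7+ cells was Slamf9 in both comparisons, which share the CTRL arrays. It was higher in Ifnar1-KO than in CTRL by 0.86 ± 0.27 (95% interval 0.28 to 1.44, adjusted p = 1) and higher in GF by 0.99 ± 0.27 (0.41 to 1.57, adjusted p = 0.496). All 3 Ifnar1-KO arrays and all 3 GF arrays lay above the 3 CTRL arrays, as they did for 3.58% and 5.91% of all genes. The unadjusted p were 0.00645 and 0.00252. Background and the sex-linked signal given above cannot be told apart here.

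**Figure D3:**
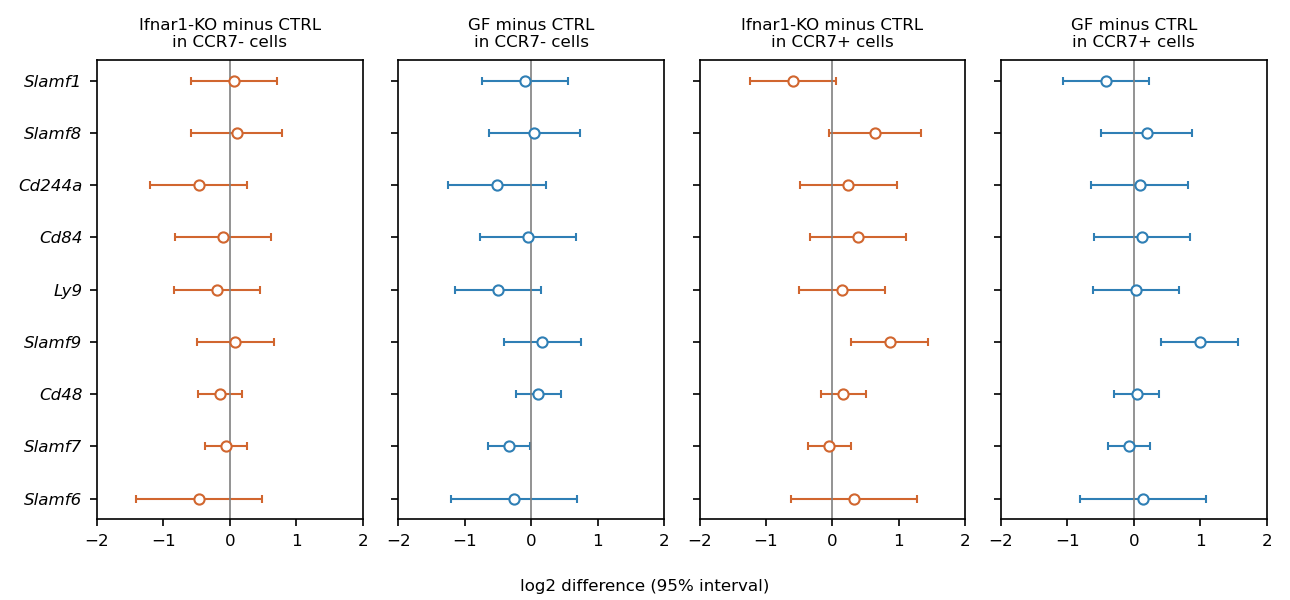
Difference from CTRL (log2) of each member in Ifnar1-KO and GF mice, for CCR7- and CCR7+ cells, with 95% intervals from limma; all points are open because none was called. The Slamf9 intervals in CCR7+ cells, 0.28 to 1.44 and 0.41 to 1.57, lie above 0.

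The maturation change itself did not pass the test of a difference from CTRL for any member. Between Ifnar1-KO and CTRL the changes differed by -0.65 to 0.80, and between GF and CTRL by -0.32 to 0.82, and limma called 0.0% of genes in either (901 and 660 genes at an unadjusted p under 0.05, none of them a member). For Slamf1 the difference was -0.65 in Ifnar1-KO (95% interval -1.57 to 0.26) and -0.32 in GF (-1.24 to 0.59). For Slamf9 it was 0.78 (-0.04 to 1.60) and 0.82 (-0.00 to 1.64). These intervals leave room for differences of more than 1 log2 unit.

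The arrays apart on the second component showed a pattern of their own in the family. In CCR7- cells Slamf6, Slamf7, Ly9 and Cd244a were lower in all 3 of them than in the 6 others, where 8.36% of genes were. Ly9 read 7.11 to 7.57 against 8.10 to 8.25, and Cd244a 6.59 to 7.74 against 7.78 to 8.22. In CCR7+ cells Slamf1 (6.82 to 7.36 against 7.80 to 8.49) and Slamf7 were lower in the 3 apart, as were 4.87% of genes. For Slamf7 the ranges all but touched (10.773 to 11.127 against 11.128 to 11.297). The component was computed from all arrays, and these values only describe them. Without the 6 arrays 1 GF array a stage remained, which the fit takes to vary like the other groups. Slamf1 then rose by 4.50 ± 0.22 in GF, Cd244a fell by 3.07 there (adjusted p = 3.78e-05), and Cd48 fell by 0.83 (adjusted p = 0.0374).

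Signalling partners of the receptors were taken as a list of 21 genes, of which 18 were measured under 1 symbol. With maturation in CTRL 3 rose and 6 fell, in Ifnar1-KO 1 and 5, and in GF 3 and 6. Over all genes the shares called higher and lower were 12.6% and 13.6% in CTRL, 9.42% and 10.8% in Ifnar1-KO, and 9.53% and 11.8% in GF. The list's median change in CTRL was 0.03, against 0.07 for all genes. Among the adaptors, Sh2d1b1 read 3.27 to 3.83 and Sh2d1b2 3.46 to 3.86 over the 18 arrays, all under the level of unexpressed probesets. Sh2d1a read 3.98 to 4.47 in CTRL CCR7- and 4.80 to 5.27 in CTRL CCR7+ cells, with a change of 0.80 ± 0.65 that was not called (adjusted p = 0.392). Its highest reading, 7.35, was in the Ifnar1-KO CCR7+ group.

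The phosphatases and kinases gave the larger values. Inpp5d, which encodes the lipid phosphatase SHIP-1, read 10.48 to 10.62 in CTRL CCR7- and 7.26 to 7.78 in CTRL CCR7+ cells. The change was -3.03 ± 0.31 in CTRL (adjusted p = 3.26e-06), -2.53 ± 0.31 in Ifnar1-KO and -2.86 ± 0.31 in GF. Fgr, a Src family kinase of myeloid cells, read 7.76 to 7.84 and 5.09 to 5.35 in the same groups and fell by 2.58 (SE 0.17, adjusted p = 5.52e-08). Both were lower in every CTRL CCR7+ array than in any CTRL CCR7- array, and both were called in all 3 backgrounds.

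The other falls in CTRL were of Plcg2 (-1.60 ± 0.17), a phospholipase of B cells and myeloid cells, Vav1 (-1.17 ± 0.20), a guanine nucleotide exchange factor, Ptpn11 (-1.11 ± 0.22), which encodes SHP-2, and Csk (-1.08 ± 0.13), the kinase that restrains Src family kinases. Vav1 was not called in Ifnar1-KO (-0.58 ± 0.20, adjusted p = 0.0504). Ptpn6, which encodes SHP-1, was not called (0.51 ± 0.27, adjusted p = 0.187), nor was Fyn, the kinase that SAP recruits (-0.13 ± 0.23, adjusted p = 0.705).

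The rises in CTRL were of Cd2 (1.76 ± 0.52, adjusted p = 0.0204), the other receptor for CD48 in mice, Uvrag (0.76 ± 0.18), a partner of the Beclin 1 complex that Slamf1 binds on phagosomes, and Plcg1 (0.74 ± 0.16). Cd2 was not called in Ifnar1-KO (1.10 ± 0.52) or GF (0.84 ± 0.52). Cd2 is also made by thymocytes, whose marker mean was higher in CCR7+ arrays. The part of thymocyte RNA in the Cd2 values was not tested. Becn1 and Pik3c3, of the same complex, were not called in any background. Cybb, the oxidase subunit of the phagosome, read 3.63 to 4.08 in all CTRL and Ifnar1-KO arrays and 3.67 to 3.91 in GF CCR7- arrays, all under the level of unexpressed probesets. It passed the test in GF (adjusted p = 0.00389), where CCR7+ arrays read 4.09 to 4.93, on both sides of that level. The difference between backgrounds was not called for any gene of the list.

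**Figure D4:**
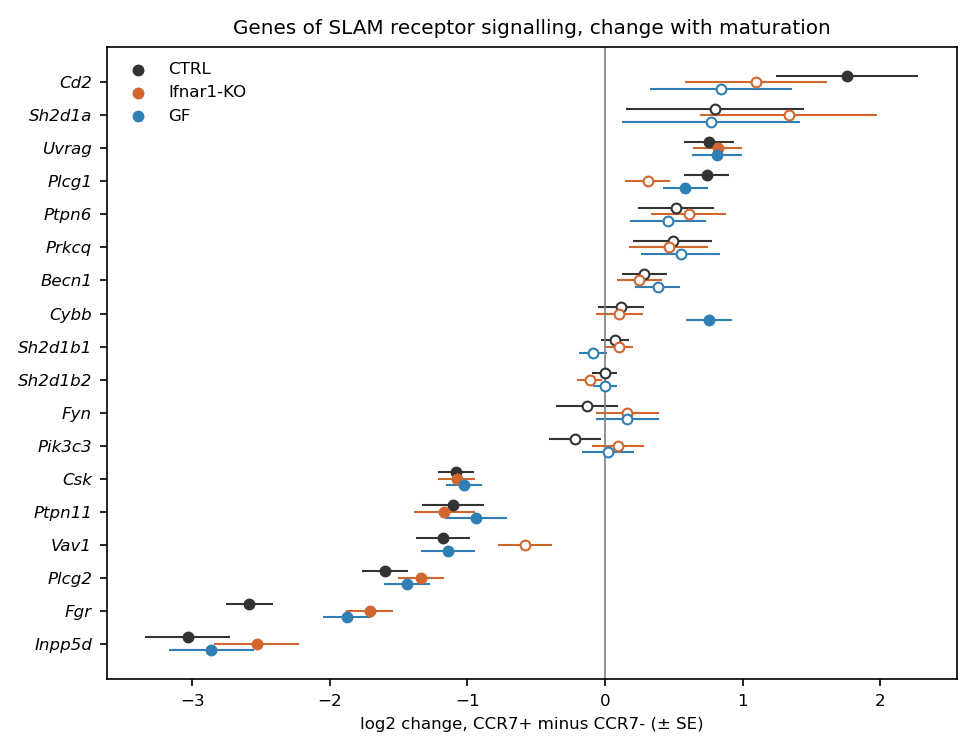
Maturation change (log2, CCR7+ minus CCR7-) of the 18 measured SLAM signalling genes in CTRL, Ifnar1-KO and GF mice, with limma standard errors; filled points were called and open points were not. Inpp5d (-3.03 in CTRL) and Fgr (-2.58) lie farthest below 0, and the 3 adaptors Sh2d1a, Sh2d1b1 and Sh2d1b2 are open.

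The members share a stretch of chromosome 1. By RefSeq gene order, Cd244a, Ly9, Slamf7, Cd48, Slamf1, Cd84 and Slamf6 follow each other with no other measured gene between them. Then 13 measured genes stand before Slamf9, and 4 more between Slamf9 and Slamf8. Along this order the CTRL changes ran -3.39, -2.54, 0.01, -0.53, 4.25, -3.24 and -0.24, so that the largest rise of the family stood between Cd48, which fell by 0.53, and Cd84, which fell by 3.24. Slamf9 and Slamf8 changed by -1.66 and -4.75.

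Among 27 other genes, 17 inside the stretch and 5 on each side, 5 rose, 1 fell and 21 were not called in CTRL, with a largest size of 1.20. In Ifnar1-KO 5 rose and 1 fell, and in GF 4 rose and 1 fell, with largest sizes of 1.53 and 1.34. Calls among these neighbours were thus near the share over all genes, which was 26.2%, 20.2% and 21.3% in the 3 backgrounds. The CTRL rises were of F11r (1.20 ± 0.33), a tight junction protein gene on the Cd244a side, Tagln2 (0.85 ± 0.13), Igsf9 (0.62 ± 0.16), Igsf8 (0.58 ± 0.12) and Usf1 (0.55 ± 0.18), and the fall was of Alyref2 (-0.77 ± 0.23). The changes of Slamf1, Slamf8, Cd244a, Cd84, Ly9 and Slamf9 in CTRL were each larger in size than that of any of these 27 neighbours.

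**Figure D5:**
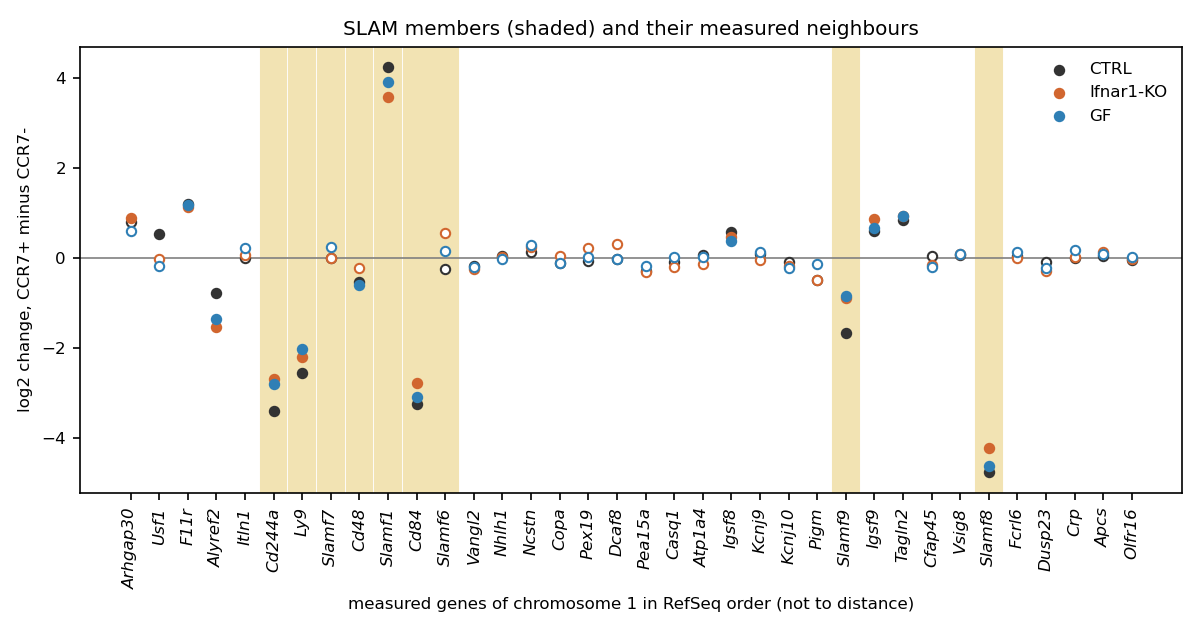
Maturation change (log2, CCR7+ minus CCR7-) in CTRL, Ifnar1-KO and GF mice of the 9 SLAM family genes (shaded) and their 27 neighbours in RefSeq gene order along chromosome 1, evenly spaced by rank rather than to distance; filled points were called by limma and open points were not. In CTRL, Slamf1 at 4.25 lies next to Cd84 at -3.24, and the largest change of a neighbour is 1.20 in CTRL and 1.53 in size in Ifnar1-KO (Alyref2).

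For each called member, the genes whose readings were most like it over the 18 arrays were found by Pearson correlation, a description that stage largely fixes for genes with large changes. Slamf1 was nearest to Yes1 (r = 0.995), Slc4a8 (0.992) and Lactb (0.992). Slamf8 and Cd84 shared the same nearest gene, Arsb (0.995 and 0.990). Within a stage the likeness was lower. Slamf1 and Yes1 gave -0.02 over the 9 CCR7- arrays, where Slamf1 lay in the background, and 0.87 over the 9 CCR7+ arrays. With Arsb, Slamf8 gave -0.50 and Cd84 0.34 over the CCR7- arrays, and 0.90 and 0.93 over the CCR7+ arrays.

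Ly9 and Cd244a also followed other genes within CCR7- cells. Ly9 was nearest to Kif15 (0.989 over 18 arrays, 0.958 within CCR7- cells and 0.775 within CCR7+ cells), and Cd244a to Dna2 (0.989, 0.897 and 0.638) and Ncapg (0.988, 0.933 and 0.302). The 9 CCR7- arrays include the 3 that stood apart, in which Ly9 and Cd244a were lowest. For Cd48 the nearest gene was Clpp (0.934), and for Slamf9 it was Epcam (0.904).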

How the data were processed

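RNA of sorted thymic XCR1+ DCs was amplified and hybridised to 18 arrays in 6 groups of 3. The deposited values are log2 intensities that the authors made with RMA in oligo, per the submitters' processing notes. Tool versions, and the set of arrays that RMA was run on, are not given in those notes.

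Of 35556 probesets, 21789 with 1 gene symbol were used (1621 had several and 12146 none), the one with the highest mean for each of 999 genes with more than 1. No level filter was applied. limma 3.58.1 (R 4.3.3) fitted 1 mean per group to all 19938 genes (12 residual degrees of freedom, 14.4 after eBayes). Genes were called at a Benjamini-Hochberg adjusted p under 0.05 in each of 9 comparisons. The number of arrays limits the precision: for the median gene, a maturation change had a 95% half-width of 0.27. The fit was tested on simulated data.

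Replicate numbers come from the array codes in the labels. Same-numbered arrays of the 2 stages deviated together in CTRL (0.188, 0.147 and 0.100) and Ifnar1-KO (0.284, 0.321 and 0.236) but not in all GF pairs (0.267, 0.00354 and 0.0296), against a limit of 0.1. The codes of the number 2 CTRL pair have their letters inverted; the stage in the labels was used. All members were named, with sort genes, signalling genes by rule and markers of other cells. Members and lists were chosen with earlier results of these data known. The marker lists and the signalling list are from general knowledge. Alternatives were an intensity trend, array centring, a level filter, the mean of all probesets, array weights, a replicate block, separate fits of the groups compared, a covariate for the r that ends some array codes, and each array left out. The r ends every GF code but only some CTRL and Ifnar1-KO codes, so it goes in part with background. Python 3.11.15 with matplotlib 3.10.9 drew the figures.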

Additional observations from a re-analysis of the deposited data

How the results depend on the processing

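Across 81 member results and 1404 refits, 1385 stayed on their side of the threshold and 19 lost a call, all of Cd48 or Slamf9; none gained one. No refit of a called value changed sign (0 of 320), while 83 of 1084 refits of values that were not called did, among them Slamf6 and Slamf7 with maturation (Slamf6 in Ifnar1-KO from -0.10 to 0.86). Called members numbered 7 in CTRL, 6 in Ifnar1-KO and 7 in GF. Leaving out each array gave 6 to 7, 5 to 6 and 5 to 7, and the other settings 7, 5 to 6 and 5 to 7. With only the groups compared, the GF calls of Slamf9 and Cd48 ended (adjusted p = 0.0790 and 0.0703), and with array weights that of Slamf9 (0.0784). The replicate block changed no member's call (7, 6 and 7). Comparisons between backgrounds called 0 members under every setting run. Over all genes, the count for Ifnar1-KO minus CTRL ranged from 0 to 5 in CCR7- cells (0 in the fit reported) and from 0 to 12 in CCR7+ cells (3). For GF minus CTRL it ranged from 1 to 41 (3, with 41 without GF CCR7- array 1) and from 1 to 39 (6). The differences of maturation gave 0 to 1 and 0 to 5 (0 and 0). The counts of 12 and 39, and those for the differences of maturation, came without Ifnar1-KO number 2 and GF numbers 2 and 3. That setting, like leaving out both Ifnar1-KO number 2 arrays, was chosen after seeing the data. Signal near background limits Slamf1 in CCR7- cells and Slamf8 and Cd244a in CCR7+ cells.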
